A study of Mus musculus with 7 samples.

Results

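The cytosolic ribosomal protein genes were taken from the deposited expression table by symbol: rows named Rpl or Rps with a number and an optional paralog letter, together with Rplp0, Rplp1, Rplp2, Rpsa and Rps27rt, without pseudogene rows ending in -ps and without the Rps6k kinases. This rule found 90 of the 56941 rows, 53 of them of the large subunit and 37 of the small subunit. In the GENCODE vM21 annotation 84 of the 90 are protein-coding (51 large, 33 small). Another 5 are processed pseudogenes that carry a symbol of this form (Rps3a2, Rps3a3, Rps12l1, Rpl6l and Rpl32l), and Rps4l is a transcribed processed pseudogene. The study measured RNA by poly(A) sequencing of fresh cerebral cortex from mice at postnatal day 7, in 4 wild-type (WT) samples and in 3 P213L samples. P213L is a variant of Hnrnph2, which lies on the X chromosome and encodes an RNA-binding protein of the hnRNP class. No strain, sex or zygosity was given in the labels used here, and no treatment separated the groups. The series title names myelination and oligodendrocyte differentiation as the subject, and P213L was set against WT to see what the variant changes in the cortical transcriptome. Nothing in the labels states that each sample is a separate animal, and the p-values therefore describe only the spread among these 7 samples, which may be technical.

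Ribosomal proteins assemble with ribosomal RNA into the large subunit, which joins amino acids, and the small subunit, which decodes the messenger RNA. Each protein is needed in about the same number of copies per ribosome, and surplus copies are degraded. Their messenger RNAs typically begin with a C followed by a run of pyrimidines, the 5′ terminal oligopyrimidine (TOP) motif, through which mTORC1 controls their translation. Growing and newly differentiating neural cells, oligodendrocyte precursors among them, make many ribosomes, and the level of these messenger RNAs is not by itself a measure of ribosome number.

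The motif is shown first because the choice by symbol did not use it and because it was found more often among the members than among other genes. The search did not find it in all members. Of the 90 members, 65 had an entry in the RefSeq promoter table (GRCm38.p6, 77 windows of 250 bases before to 50 bases after an annotated start). A C followed by at least 4 further C or T, read on the transcribed strand and beginning within 5 bases of the annotated start, was found in 31 of the 65 (47.7%). The same run was found in 22.9% of 1431 other protein-coding genes at a mean of 100 TPM (transcripts per 1000000) or more, and in 21.2% of all 27025 genes of the table. At the start base itself the shares were 23.1% of members (15 of 65), 3.63% of the other abundant genes and 3.01% of all genes. Within 10 bases they were 63.1%, 36.1% and 34.4%. The count thus depends on the distance allowed from the annotated start, which may differ from the start used in cortex. A member without a match is not shown to lack the motif. The lines below give 30 bases each, 15 before the annotated start, the start base and 14 after it, with the pyrimidine run in capitals. Rps6, Rpl35 and Rpl15 have long runs at the start base, Rpl38 and Rps21 are among the members with the lowest fold changes described below, Rps27 and Rps27rt are a gene and its retrogene copy, Rps10 has a run but a very low value in the table, and Rpl7l1 has no run.
Rps6: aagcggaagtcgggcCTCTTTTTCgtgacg
Rpl35: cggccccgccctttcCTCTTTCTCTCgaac
Rpl15: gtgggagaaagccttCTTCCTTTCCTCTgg
Rpl38: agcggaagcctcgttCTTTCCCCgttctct
Rps21: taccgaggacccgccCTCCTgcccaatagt
Rps27: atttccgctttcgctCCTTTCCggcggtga
Rps27rt: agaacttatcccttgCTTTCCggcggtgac
Rps10: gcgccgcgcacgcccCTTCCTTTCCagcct
Rpl7l1: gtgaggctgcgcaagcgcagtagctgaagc
These windows lie at chr4:86857353-86857382 on the minus strand (Rps6), chr2:39005117-39005146 minus (Rpl35), chr14:18270972-18271001 minus (Rpl15), chr11:114668565-114668594 plus (Rpl38) and chr2:180257364-180257393 plus (Rps21). The others lie at chr3:90213634-90213663 minus (Rps27), chr9:114982725-114982754 minus (Rps27rt), chr17:27635230-27635259 minus (Rps10) and chr17:46782642-46782671 minus (Rpl7l1). The full promoter windows of Rps27 and Rps27rt, which run past the bases printed, share 38 identical bases in a row that begin 1 base after the annotated start in Rps27 and at the start base in Rps27rt, so the retrogene window differs from its parent upstream of the start. The motif CCGGAA, which is bound by ETS factors, was present on either strand in 36 of the 65 genes (55.4%), against 28.8% of the other abundant genes and 16.7% of all genes. AAGATGG stood in 15.4% of members and 8.67% of the other abundant genes, and TATAAA, the TATA box, in 12.3% and 10.1%. A match is a description of letters in the window and says nothing of binding.

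The libraries were estimated at 57.2 to 79.4 M counted units (M, 1000000), with WT replicate 3 the lowest. WT replicate 3 also stood apart from the others: over all tested genes it correlated with each other library at 0.943 to 0.949, and 28367 rows were above 0 there against 31387 to 32526 elsewhere. The summed TPM of 8 markers of cortical excitatory neurons was 855 in WT replicate 3, 1366 to 1452 in the other WT samples and 1280 to 1414 in P213L, and 6 of the 8 markers were lowest of all 7 samples in WT replicate 3. The 5 erythroid markers summed to 903 in WT replicate 3, against 415 to 492 in the other WT samples and 460 to 600 in P213L, with 4 of the 5 highest in WT replicate 3. The 4 choroid plexus markers summed to 1235 in WT replicate 2 and to 3.34 to 5.71 in every other sample. The 5 oligodendrocyte markers summed to 187 to 234 in WT and 130 to 145 in P213L. Of these 5, 4 were lower in P213L and 1, Mog, was higher (mean 12.5 TPM against 11.8 in WT). No marker of these 4 lists was at 0 in all 7 samples. WT replicate 3 also had the lowest sum for inhibitory neurons (254 TPM), astrocytes (561), dividing progenitors (13.4) and meningeal fibroblasts (43.7). It had the highest sum for oligodendrocytes (234), microglia (206) and endothelium (350), but single markers did not all follow these sums. In WT replicate 3, 3 of the 5 oligodendrocyte markers were highest and 1, Mog, was lowest of all 7 samples. Of the microglial markers 1 (C1qa) was highest and 2 (Cx3cr1 and Csf1r) were lowest there. Of the endothelial markers 1 (Cldn5) was highest and 2 (Pecam1 and Flt1) were lowest. For oligodendrocyte precursors (340) WT replicate 3 lay within the range of the other samples. Hnrnph2 itself stood at 87.0 ± 5.66 TPM (SD, n = 4) in WT and 82.0 ± 5.39 (n = 3) in P213L, which does not check the labels, since P213L changes the protein. The ribosomal RNA row Rn18s-rs5 stood at 13116 to 24125 TPM in WT, lowest in replicate 3, against 25564 to 41151 in the P213L samples. Malat1, a nuclear RNA, stood at 89.9 TPM in WT replicate 3, 291 to 385 in the other WT samples and 488 to 569 in P213L. Many group comparisons are given with and without WT replicate 3 below.

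Ribosomal protein transcripts took up 4.16, 3.86, 6.62 and 4.05% of all TPM in WT replicates 1 to 4 and 4.41, 3.90 and 3.81% in P213L replicates 1 to 3. The groups overlapped, and WT replicate 3 was the highest sample by far. The WT mean was 4.67% ± 1.31 (SD, n = 4) and the P213L mean 4.04% ± 0.323 (n = 3). Without WT replicate 3 the WT mean was 4.02% ± 0.152 (n = 3), so that P213L lay 0.0215 percentage points above WT in place of 0.628 below it. With mitochondrially encoded rows removed as well, the P213L mean was 4.28% and the mean of those 3 WT samples 4.33%, so this small difference changed sign. In bulk tissue, fewer cells of a type and less RNA per cell cannot be told apart.

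Large subunit genes made up 2.52, 2.33, 3.99 and 2.44% of TPM in WT and 2.67, 2.36 and 2.31% in P213L. Small subunit genes made up 1.64, 1.52, 2.63 and 1.600% in WT and 1.75, 1.54 and 1.51% in P213L. Both subunits were thus highest in the same library and in the same proportion. The ratio of large to small subunit TPM ran only from 1.51 to 1.53 over the 7 samples, with a mean of 1.527 ± 0.0085 in WT and 1.531 ± 0.0034 in P213L. No test was run on these sums, because they are scores over a chosen list.

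**Figure D1:**
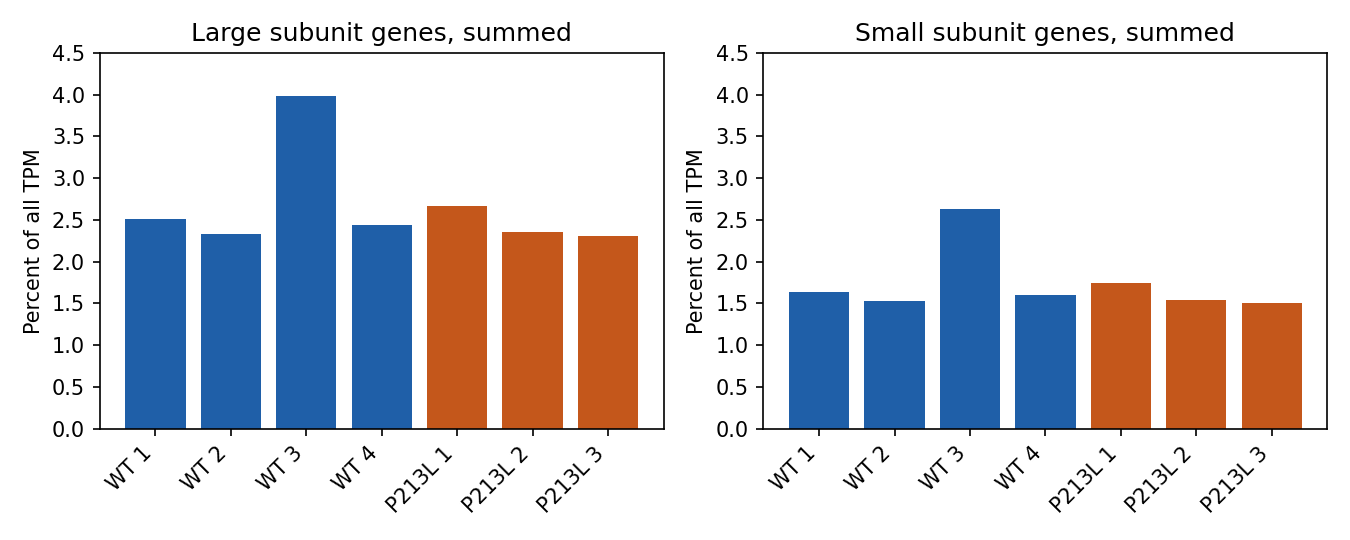
Summed TPM of large subunit genes (left) and small subunit genes (right) as a percent of all TPM, 1 bar per library, WT in blue and P213L in orange, with the axis from 0. WT replicate 3 stands at 3.99% and 2.63%, and the other 6 libraries at 2.31 to 2.67% and 1.51 to 1.75%.

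Of the 90 members, 85 had a mean of at least 1 TPM and were tested (49 large, 36 small). Of the 5 others, Rpl10l, a testis paralog, and the pseudogene Rps12l1 were listed at 0 in all 7 samples, and Rpl3l, Rpl39l and Rpl32l were above 0 but below 1 TPM on average. No member passed an adjusted p of 0.05 in the limma test of P213L against WT, where 0.0% of all 17582 genes tested passed. The lowest adjusted p among members was 0.827 (limma, Benjamini-Hochberg over all genes). At an unadjusted p under 0.05, 1 member was lower in P213L (Rps29) and 0 were higher, beside 1.38% of all genes lower and 2.36% higher. The share of members at that level was therefore near the background. Without WT replicate 3, 1 was lower (Rps29) and 1 higher (Rpl6), beside 3.95% and 4.7% of all genes. With limma's sample weights, which left most of the weight on 1 library of each group, 5 members passed the adjusted threshold beside 22.6% of all genes.

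The direction was shared by most members and depended on WT replicate 3. The log2 fold change was below 0 for 76 of the 85 tested members (44 of 49 large, 32 of 36 small), while it was below 0 for 36.6% of all genes tested. The median was -0.15 over the members, -0.14 for the large subunit and -0.18 for the small subunit, against 0.07 over all genes, and the median standard error of a member was 0.199. Without WT replicate 3 the member median was 0.02 and that of all genes -0.00. With all 7 libraries it was -0.23 after median-of-ratios scaling, -0.09 after quantile normalization and 0.02 when scaled to the summed TPM of the members, a scaling that centres them. The values of P213L and WT did not overlap for 2 members, Rps29 and Rps21, both lower in P213L, and for 0 members higher, beside 2.75% and 5.94% of all genes. Without WT replicate 3 the same 2 were lower with no overlap and 1, Rpl6, was higher, beside 6.83% and 7.33% of all genes.

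**Figure D2:**
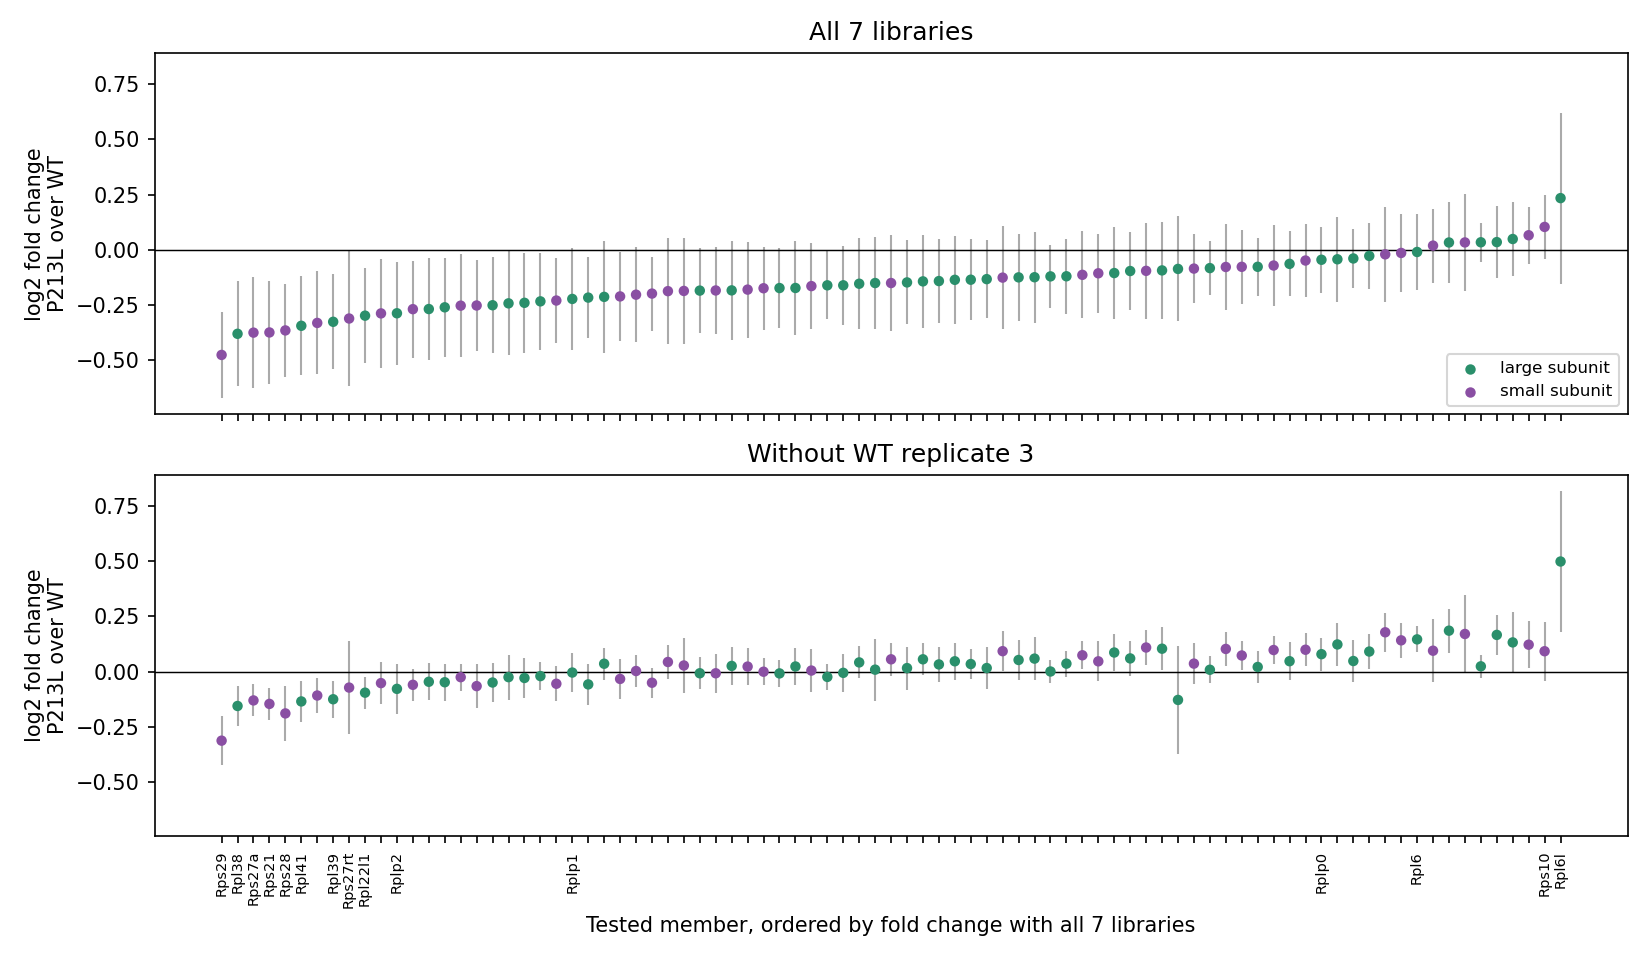
Log2 fold change of P213L over WT (on the log2(TPM + 0.5) scale) with its standard error for the 85 tested members, large subunit in green and small subunit in purple, with all 7 libraries (top) and without WT replicate 3 (bottom), in the same order, with names for members whose fold change or p is given in the text. With all libraries 76 points lie below 0, and without WT replicate 3 the median is 0.02 while Rps29 remains lowest.

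Rps29, a zinc-binding protein of the small subunit head that is mutated in some families with Diamond-Blackfan anaemia, had the lowest fold change. Rps29 (chr12:69157722-69159186, minus strand, mm10) stood at 1038, 841, 1412 and 831 TPM in WT and 813, 693 and 672 in P213L. Each P213L value was lower than every WT value, the nearest pair being WT replicate 4 and P213L replicate 1. Its log2 fold change was -0.48 with a standard error of 0.19 and an adjusted p of 0.827 (limma). Without WT replicate 3 it was -0.31 with a standard error of 0.11 and an adjusted p of 0.537 (limma).

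Rps21 (chr2:180257377-180258445, plus strand), a small subunit protein, stood at 634, 529, 1089 and 579 TPM in WT and 524, 522 and 525 in P213L. The P213L values were nearly equal, and the lowest WT value, that of replicate 2, lay just above them. Its log2 fold change was -0.37 with a standard error of 0.23, and -0.15 without WT replicate 3. Rps28 (chr17:33819027-33824562, minus strand), which lies where the messenger RNA leaves the small subunit, stood at 389, 295, 534 and 308 TPM in WT and 327, 274 and 266 in P213L. WT replicates 2 and 4 lay below P213L replicate 1, so the groups overlapped, and the log2 fold change was -0.36 (standard error 0.21), or -0.19 without WT replicate 3.

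Rpl38 (chr11:114668524-114672331, plus strand) is a large subunit protein whose loss in mice disturbs the patterning of the axial skeleton. Its values were 816, 753, 1488 and 831 TPM in WT and 806, 713 and 643 in P213L. WT replicate 2 lay below P213L replicate 1, and the log2 fold change was -0.38 (standard error 0.24), or -0.16 without WT replicate 3. Rpl41 (chr10:128548114-128549305, minus strand), the smallest ribosomal protein, stood at 2093, 1707, 3263 and 1715 TPM in WT and 1754, 1624 and 1625 in P213L. Rpl39 (chrX:37082520-37085402, minus strand), which lines the exit tunnel for the new protein chain, stood at 307, 298, 514 and 279 TPM in WT and 301, 267 and 245 in P213L. In both genes 1 P213L sample lay within the WT range, and their log2 fold changes were -0.34 and -0.33, or -0.13 and -0.12 without WT replicate 3.

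**Figure D3:**
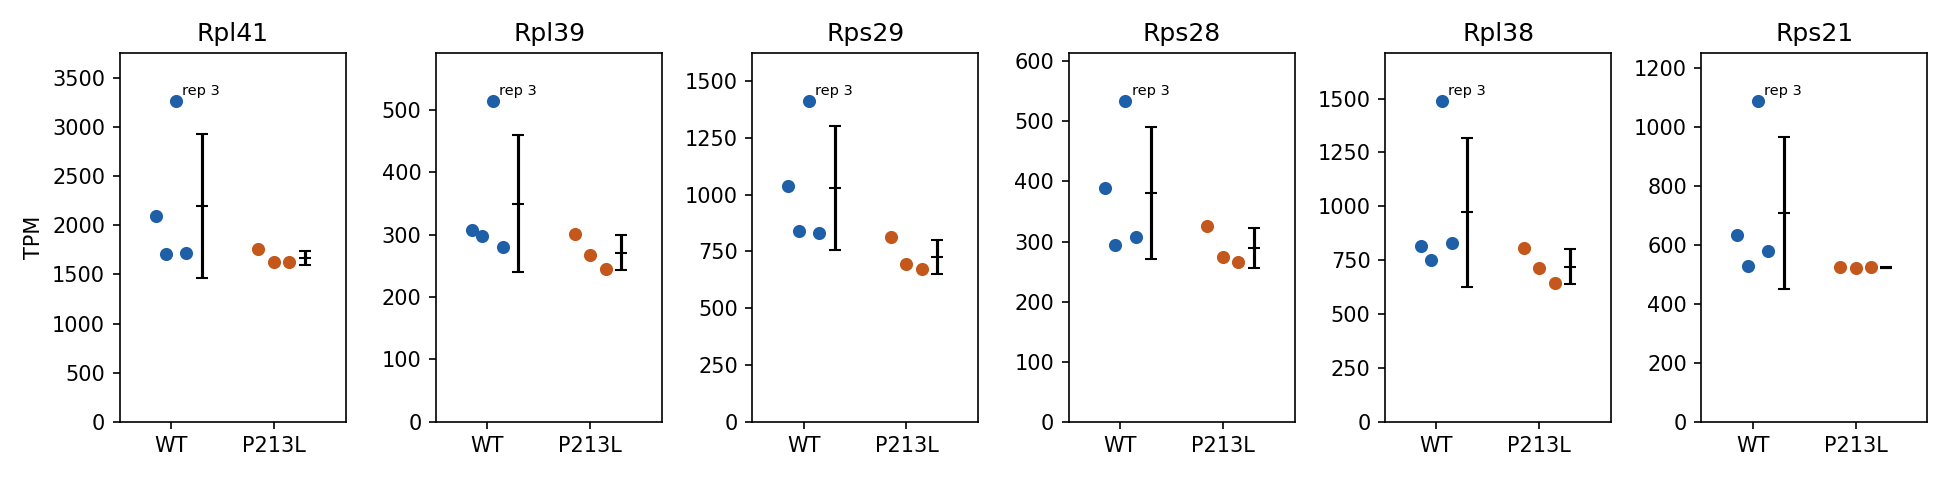
TPM of Rpl41, Rpl39, Rps29, Rps28, Rpl38 and Rps21 in each WT (blue) and P213L (orange) library, with the mean and SD of each group as a black bar beside the points and each axis from 0. WT replicate 3 is the highest point in each panel, and the groups do not overlap for Rps29 (672 to 813 against 831 to 1412 TPM) and Rps21.

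These 6 members, the tested ones with the smallest unadjusted p, are also the 6 tested members with a coding sequence under 250 bases: Rpl41 with 75, Rpl39 with 153, Rps29 with 168, Rps28 with 207, Rpl38 with 210 and Rps21 with 249. In all 6 the P213L mean lay below the mean of WT replicates 1, 2 and 4, at a median ratio of 0.901. The relation to coding length, noticed after the values were seen, ran through the 74 protein-coding members at a mean of 100 TPM or more. The median ratio of the P213L mean to the mean of WT replicates 1, 2 and 4 was 0.970 for the 25 members with under 400 coding bases, 1.01 for the 28 from 400 to 600 and 1.04 for the 21 over 600. P213L was the lower group in 18 of the 25, 10 of the 28 and 1 of the 21, the last being Rpl7a. Across these 74 genes Spearman's rho between coding length and that ratio was 0.57, given as a description, since the genes share the same 6 libraries and are not independent replicates.

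Other protein-coding genes at 100 TPM or more showed a smaller difference of the same sign for short coding sequences. Among 1782 such genes rho was 0.07. The 57 with under 250 coding bases had a median ratio of 0.956, with P213L lower in 40, and the 192 with under 400 had 0.982. The 1362 with over 600 had 1.00, below the 1.04 of the ribosomal protein genes over 600, though lengths in this open-ended bin were not matched. No test was run of the difference between the members and the other genes, and the part of coding length in it was not tested.

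**Figure D4:**
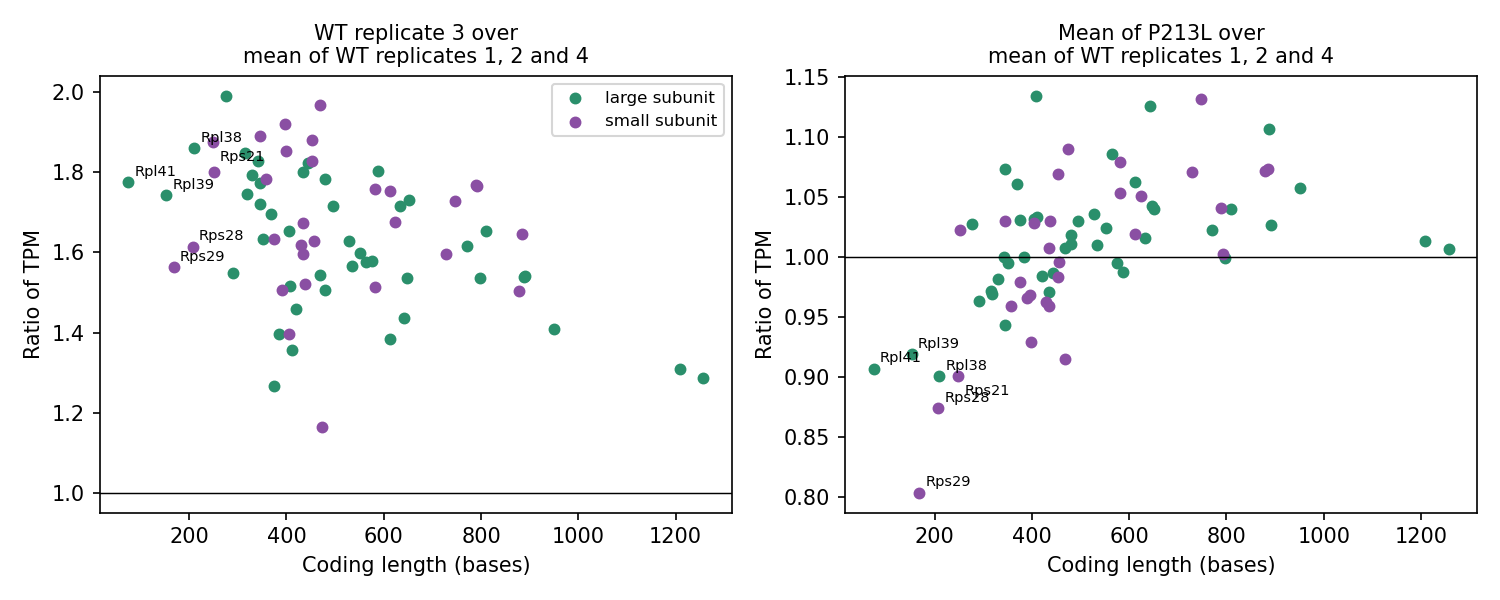
Ratio of TPM against coding length in bases for the 74 protein-coding members at 100 TPM or more, large subunit in green and small subunit in purple: WT replicate 3 over the mean of WT replicates 1, 2 and 4 (left) and the P213L mean over that same mean (right), with a line at 1. On the right the 6 labelled members with under 250 coding bases have a median of 0.901, and the left panel lies above 1 throughout.

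WT replicate 3 held more ribosomal protein RNA per TPM than any other library for 81 of the 85 tested members, while it was the highest library for 21.6% of all genes. Its value over the mean of the other 3 WT samples had a median of 1.63 (1.62 large, 1.64 small) and reached 2.41 in the pseudogene Rpl6l. This ratio was at least 1.5 for 69 of the 85 members and for 8.11% of all genes, whose median was 0.793. Rpl24, Rps10 and Rpl7l1 were among the 4 members that were not highest there. Shorter members had the higher ratio (median 1.77 under 400 coding bases, 1.596 over 600, rho -0.37 over 74 genes). Other abundant genes differed more with length, at 1.498 under 400 and 0.856 over 600 (rho -0.68 over 1782 genes). Members over 600 were thus high in WT replicate 3 where the median of other genes over 600 was low. That bin has no upper limit, and lengths within it were not matched between members and other genes. Several marker sums given above, neuronal, glial, progenitor and erythroid among them, were lowest or highest in this library, and Malat1 was low. Their part in the result was not tested.

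The members varied less once WT replicate 3 was left out. The median coefficient of variation over the other 6 libraries was 7.69% for the members and 9.91% for all genes tested, against 22.8% and 17.7% over all 7. The genes tested start at 1 TPM, while 74 members averaged at least 100, and no background matched for level was computed. Among the 6 libraries other than WT replicate 3, P213L replicate 1 was the highest for 57 of the 85 members. P213L replicate 3 was the highest for 0 and the lowest of all 7 for 32. WT replicate 2 was the lowest of all 7 for 20. The members summed to 4.41% of all TPM in P213L replicate 1 and 3.81% in P213L replicate 3, within a single genotype. The same counts were not made over all genes tested, so whether this difference is particular to the members was not tested.

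The members were also compared as parts of the block. As a share of the summed TPM of all 90 members, 6 were lower in every P213L sample than in every WT sample (Rps29, Rps28, Rpl38, Rpl39, Rps27a and Rpl36a) and 7 were higher (Rps2, Rplp0, Rps6, Rpl10, Rpl10a, Rps3 and Rps4l). The same measure put 0.654% of all genes tested lower and 6.34% higher. This scaling centres the members but put the median log2 fold change over all genes at 0.23. Those 2 shares are therefore skewed toward higher and are not a like background for either count of members. Rps29 made up 2.50, 2.18, 2.13 and 2.05% of ribosomal protein TPM in WT and 1.84, 1.78 and 1.76% in P213L. On this scale WT replicate 3 lay within the range of the other WT samples, and the highest P213L share was below the lowest WT share. Rps6, the target of S6 kinase downstream of mTORC1, made up 1.01, 1.19, 1.20 and 1.22% in WT and 1.29, 1.29 and 1.27% in P213L. In a limma fit on values scaled to the summed member TPM, Rps29 had a log2 fold change of -0.30 (standard error 0.11) and an adjusted p of 0.848, and 0 members passed the threshold.

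By level, Rplp1 led all members. It stood at 3660, 3328, 6400 and 3518 TPM in WT and 3913, 3342 and 3250 in P213L, and the groups overlapped. Rplp1 and Rplp2 are the acidic proteins that, bound to Rplp0, form the stalk that recruits translation factors to the large subunit. Rplp0 stood at 1212 ± 228 TPM in WT (n = 4) and 1163 ± 90.2 in P213L (n = 3), and Rplp2 at 402 ± 136 and 318 ± 29.6. None of the 3 passed the threshold. The log2 fold change was -0.22 for Rplp1, -0.29 for Rplp2 and -0.04 for Rplp0, and without WT replicate 3 it was -0.00, -0.08 and 0.08.

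After Rplp1 the highest means over the 7 samples were those of Rpl41 at 1969 TPM, Rps15 at 1808, Rps2 at 1800, Rps3a1 at 1296 and Rpl36 at 1201. Rps15 lies near the decoding site and Rps2 at the entry of the messenger RNA channel. Rps15 stood at 1791, 1595, 2805 and 1642 TPM in WT and 1838, 1502 and 1483 in P213L. Rps2 stood at 1669, 1539, 2453 and 1690 in WT and 1889, 1693 and 1668 in P213L. The order of this pair differed between samples: Rps15 was above Rps2 in 3 WT samples and below it in every P213L sample. In all, 8 members averaged at least 1000 TPM and 74 at least 100.

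Several members have known roles outside bulk translation. Rpl5 and Rpl11, which with 5S ribosomal RNA bind Mdm2 and so stabilise p53, stood at 253 ± 60.3 and 370 ± 96.4 TPM in WT and 229 ± 13.1 and 327 ± 28.8 in P213L. Rps19, mutated in Diamond-Blackfan anaemia, stood at 175 ± 45.9 in WT and 153 ± 20.4 in P213L. Rps14 stood at 501 ± 173 and 443 ± 48.8, and Rpsa, also described as a laminin receptor, at 985 ± 278 and 911 ± 64.3. The large WT spread in each of these came with WT replicate 3. Without that library the log2 fold changes were 0.04 (Rpl5), 0.02 (Rpl11), 0.005 (Rps19), 0.09 (Rps14) and 0.10 (Rpsa). P213L was then no longer the lower group in any of them. Rpl10, an X-linked protein at the core of the large subunit, stood at 412, 426, 619 and 454 TPM in WT and 549, 463 and 442 in P213L. Rps6 stood at 420, 460, 792 and 494 TPM in WT and 570, 502 and 483 in P213L, and Rpl37 at 395 ± 97.1 and 335 ± 38.5. The log2 fold change of Rpl37 was -0.22, or -0.06 without WT replicate 3. For Rpl6 the values were 314, 336, 504 and 334 TPM in WT and 380, 357 and 350 in P213L, so that without WT replicate 3 all P213L values lay above WT, with an unadjusted p of 0.040 and an adjusted p of 0.551 (limma).

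Rps27a is made as a fusion with ubiquitin and so supplies both. It stood at 254, 267, 507 and 252 TPM in WT and 257, 234 and 217 in P213L, with P213L replicate 1 inside the WT range, and its log2 fold change was -0.37 (standard error 0.25), or -0.13 without WT replicate 3. At the other end of the range, the highest fold changes among tested members were 0.23 for Rpl6l and 0.10 for Rps10. Rpl6l is a pseudogene at 0.545 to 2.40 TPM, with a standard error of 0.39. The signs of Rpl6l and Rps10 changed under at least 1 other scaling or weighting each.

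A level per length depends on the length used. The deposited TPM multiplied by the summed exon length of a gene in vM21 fell within 0.05 of a multiple of 0.5 counted units for 98.9% of members above 0 (all but Rps4l), so the deposited values appear to be divided by the length of all annotated exons together. Across the 74 abundant members rho between that length and mean TPM was -0.68. TPM has that length in its denominator, so a negative rho is partly built in. Divided by coding length instead, the interquartile fold between members was 1.40, against 2.14 in TPM, and rho between both scales was 0.37. The full span between the lowest and highest of them was wider, at 60.9-fold against 38.9-fold in TPM. The units were counted over all exons but divided by coding bases alone, so short coding sequences in longer transcripts are raised on this scale. Rpl41 has 75 coding bases in a transcript of 437 bases. Per coding length Rpl41 led with 8446 units per 1000 coding bases per M units, then Rplp1 with 1574, Rps2 with 1024 and Rps29 with 1020. Part of the order of levels in TPM may therefore be an order of annotated exon lengths, which does not touch comparisons of 1 gene between samples.

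The table lists 3 core members far below the others, namely Rpl24 at 1.23 ± 0.319 TPM in WT and 1.14 ± 0.396 in P213L, Rps10 at 5.14 ± 0.804 and 5.53 ± 0.299, and Rpl13a at 23.7 ± 4.80 and 24.2 ± 0.879. Rpl13a is known for restraining translation of inflammatory messenger RNAs, and Rps10 lies at the messenger RNA entry side of the small subunit. Each shares most of its coding bases with another gene annotated on the same strand: 83.4% of Rpl24 with Gm28037, 92.1% of Rps10 with RPS10-NUDT3 and 97.5% of Rpl13a with Gm45713. In every other protein-coding member the share was at most 13.6% (Rpl19). The rows Gm28037 and Gm45713 were themselves listed at 0 in all 7 samples. How reads that fall on both genes of such a pair were counted is not given in the sources used here, so the levels of Rpl24, Rps10 and Rpl13a are uncertain. In addition, 24 members share exon bases with annotated small nucleolar RNAs.

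**Figure D5:**
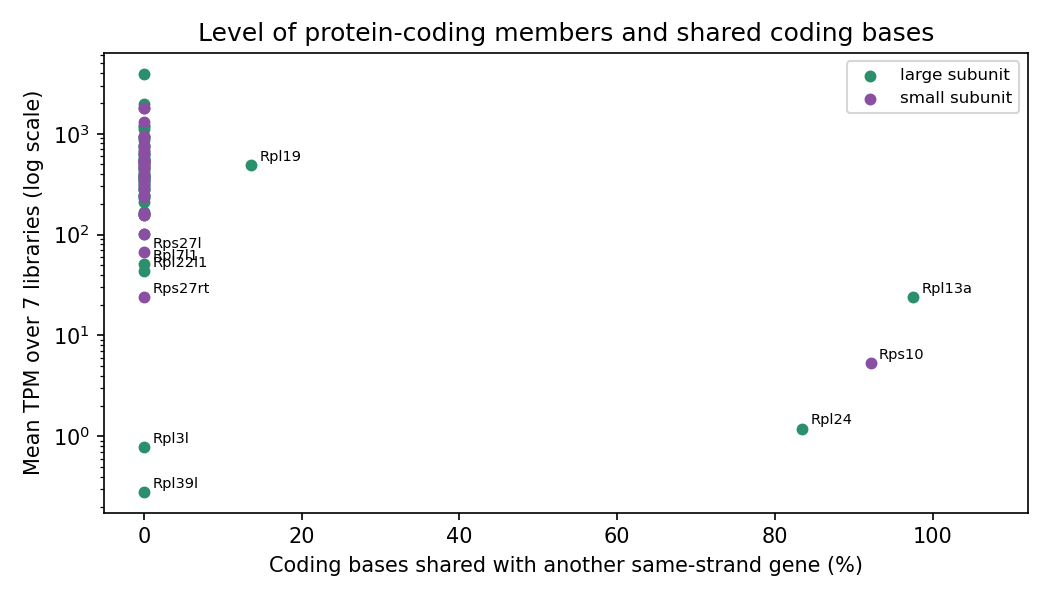
Mean TPM over the 7 libraries (log scale) against the percent of coding bases that a protein-coding member shares with another gene on the same strand, large subunit in green and small subunit in purple. Rpl24, Rps10 and Rpl13a, at 83.4 to 97.5%, lie between 1.19 and 23.9 TPM, where the only other members are the paralogs Rps27rt, level with Rpl13a, and Rpl3l and Rpl39l, which lie lower still.

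Paralogs and retrogenes were compared with their partners within each sample, where depth acts on both. WT replicate 3 did not always raise both partners alike, so the WT means of such ratios still carry it. Rpl7l1, for example, was at 8.86% of Rpl7 in WT replicate 3 and at 13.9 to 17.5% elsewhere. Reads of near-identical copies can be split between them, so these levels are uncertain. Rpl22l1, the paralog of Rpl22, stood at 41.4, 40.6, 70.6 and 38.2 TPM in WT and 35.9, 40.8 and 35.9 in P213L, which was 21.3% ± 2.61 of Rpl22 in WT (n = 4) and 18.7% ± 0.977 in P213L (n = 3). Its ratio to Rpl22 was 25.2% in WT replicate 3 and at most 20.2% elsewhere, and its log2 fold change was -0.30 (standard error 0.22), or -0.10 without WT replicate 3. Rps27l, a p53-induced paralog of Rps27, was at 17.2% ± 1.95 of Rps27 in WT and 17.3% ± 1.81 in P213L. The retrogene Rps27rt was at 6.20% ± 1.05 and 5.85% ± 2.08, with a log2 fold change of -0.31 (standard error 0.30), or -0.07 without WT replicate 3, and Rps4l at 10.9% ± 1.26 and 11.96% ± 0.950 of Rps4x. None of these ratios separated the groups.

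Rpl7l1 is related to a factor of large subunit assembly rather than a known core protein. It stood at 51.4, 49.2, 49.1 and 51.3 TPM in WT and 52.7, 50.8 and 50.9 in P213L, and so did not follow the other members in WT replicate 3 (ratio 0.971). The muscle paralog Rpl3l averaged 0.787 TPM over the 7 samples and the testis paralog Rpl39l 0.283, or 0.139% of Rpl3 and 0.0835% of Rpl39 in WT. Rpl39l was listed at 0 in WT replicate 1 and P213L replicate 1.

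The genes that build or drive ribosomes were described from lists that, like the members, were drawn up with earlier results known. Of 4 ribosomal protein genes whose symbols do not follow the pattern, Fau, Rack1 and Rpl36al among them, none passed the threshold, and their median log2 fold change was -0.08 with all libraries and 0.04 without WT replicate 3. Fau, a ubiquitin-like fusion of a small subunit protein, stood at 846, 688, 1325 and 653 TPM in WT and 834, 708 and 766 in P213L, and like most members was highest in WT replicate 3. Of 19 translation factors and other messenger RNAs with a TOP motif, 12 had a fold change below 0 and 7 above it (median -0.10, or 0.04 without WT replicate 3), and 14 were highest in that library. Of all genes tested, 36.6% had a fold change below 0 and 21.6% were highest in that library. Eef2, the elongation factor that moves the ribosome along, stood at 2377, 1971, 1646 and 1979 TPM in WT and 2403, 2167 and 2368 in P213L, and was lowest in WT replicate 3.

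Ribosome assembly factors did not share the pattern. Of 37 tested, 19 were lower and 18 higher, with a median of -0.00, and their median ratio in WT replicate 3 was 1.03. Of 11 RNA polymerase I genes 3 were lower and 8 higher (median 0.11, or 0.07 without WT replicate 3), and Polr1e, a subunit of the enzyme, stood at 9.27 ± 0.733 TPM in WT and 11.1 ± 0.422 in P213L. Of 16 genes of mTORC1 and regulators of ribosome synthesis 2 were lower and 14 higher (median 0.22, or 0.05 without WT replicate 3), and 12 were lowest in WT replicate 3. Beside these counts, only 36.6% of all genes tested were lower, so most genes were higher in P213L in general. Over all genes the median ratio of WT replicate 3 to the other WT samples was 0.793. The share of all genes lowest in that library was not computed. Of 10 genes of ribosome rescue 8 were higher (median 0.13, or 0.05 without WT replicate 3), and Gtpbp2, which helps to release stalled ribosomes, stood at 76.0, 52.9, 42.9 and 62.0 TPM in WT and 82.0, 74.6 and 78.8 in P213L. Of 7 tested genes of the p53 response to ribosomal stress, Trp53 (p53 itself) among them, 2 were lower and 5 higher (median 0.02, or 0.08 without WT replicate 3). No gene of these lists passed an adjusted p of 0.05 (limma), and at an unadjusted p under 0.05 only Gtpbp2 was counted with all 7 libraries, beside the backgrounds of 1.38% and 2.36% given above. Leaving out WT replicate 3, that level was reached by 1 assembly factor lower and, higher, by 1 gene each of the translation factor, assembly factor, RNA polymerase I and rescue lists, beside 3.95% and 4.7% of all genes.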

How the data were processed

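The deposited table holds TPM per gene symbol and sample, per the file headers, and each column sums to 1000000. HISAT2, HTSeq and mm10 are named in the submitters' processing notes; the sources used here do not give versions, annotation or gene lengths. Libraries were stranded poly(A), per the labels' protocols. Members and lists were chosen with earlier results of these data known. The 17582 genes averaging 1 TPM or more were fitted as log2(TPM + 0.5) with limma 3.58.1 in R 4.3.3 (trend, two-sided, Benjamini-Hochberg, threshold 0.05); this scale understates changes of low genes. The fit was tested on simulated data. Counted units were estimated from steps of low values times GENCODE vM21 exon length (available for 85.9% of rows), so depths are estimates, and no count test was run. Named members were the 6 of highest mean, the 6 of smallest p, the 3 largest fold changes each way, the stalk, paralogs and a listed set of well-known members; of other lists, up to 3 of smallest p. Members named besides these were chosen after their values were seen. A few selected genes are left unreported. Protein sequences were not analysed here. Alternatives were other pseudocounts, filters, scalings, weights, a length trend, a replicate block and each sample left out. Scaling to the members and levels per coding length were chosen after seeing the data. Python 3.11.15 with pandas 2.3.3 was used for joins.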

Additional observations from a re-analysis of the deposited data

Results flagged for a closer look

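WT replicate 3 lay far from the other 3 WT samples, by the gap to the nearest of them against the group's range, for 14 of 30 measures checked, and no other library did so. Chance gives about 1 such case in 20 groups, and the 14 share 1 library, so they are not separate observations. The measures were Rplp1 at 6400 TPM in that library, Rps15 at 2805, Rps2 at 2453, Rps3a1 at 2061, Rpl36 at 2001, Rpl38 at 1488, Rpl39 at 514, Rps27a at 507, Rpl5 at 343, Rps27l at 100.4 and Rpl22l1 at 70.6. The others were the share of all TPM in ribosomal protein genes at 6.62%, in large subunit genes at 3.99% and in small subunit genes at 2.63%.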

How the results depend on the processing

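The number of members past an adjusted p of 0.05 was 0, as was that of all genes, under each alternative except sample weights in limma, which gave 5 members and 3981 genes (22.6% of those tested). That fit weighted WT replicate 4 by 5.24 and P213L replicate 3 by 6.90 against 0.0431 for WT replicate 3, so it rests mostly on 1 library of each group. It called Rps29 (-0.30, adjusted p 0.0188), Rpl38 (-0.29, 0.0244), Rps24 (-0.23, 0.0380), Rps27a (-0.20, 0.0496) and Rpl13a (0.24, 0.0404), with 17 members lower and 7 higher at an unadjusted p under 0.05. The count of members lower at that level was 0 with no filter, with median-of-ratios scaling, without the trend and with the replicate block plus median-of-ratios scaling, and 2 when scaled to the member sum without WT replicate 3; 1 was higher with median-of-ratios scaling without WT replicate 3. Rps10 reversed to -0.0052 with quantile normalization and -0.050 with the block plus median-of-ratios scaling, and Rpl6l to -0.077 with sample weights; Rplp0 (-0.04) reversed to 0.020 with quantile normalization, 0.038 with sample weights and 0.13 when scaled to the member sum, and, without WT replicate 3, to 0.079 as deposited, 0.077 with median-of-ratios scaling and 0.074 scaled to the member sum; the causes were not tested. The median over all genes was 0.07 as deposited, -0.00 with median-of-ratios scaling and 0.23 when scaled to the member sum.

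Leaving out 1 sample at a time gave 0 members past the threshold each time, 0 to 1 lower and 0 to 1 higher at an unadjusted p under 0.05, and Rps29 lost that level without WT replicate 1, P213L replicate 2 or P213L replicate 3. Member medians ran from -0.22 to 0.02, large from -0.22 to 0.02 and small from -0.25 to 0.03, above 0 only without WT replicate 3. The P213L minus WT difference ran from -0.899 to 0.0215 percentage points for all members, from -0.538 to 0.0129 for large and from -0.361 to 0.00862 for small, again above 0 only without WT replicate 3, and that of the large to small ratio from -3.33e-06 to 0.00623. Rplp0 ran from -0.110 to 0.079 and Rps29 from -0.57 to -0.31. Without the 3 most abundant members the ratio differed by 0.0191. The pyrimidine run was in 23.1% of members at the start base and 63.1% within 10 bases. Per coding length the interquartile fold of levels was 1.40.

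Replicate numbers did not pair the samples: deviations of same-numbered samples correlated at 0.13, 0.17 and -0.10. With the replicate block 0 members passed the threshold, 1 was lower and 0 were higher at an unadjusted p under 0.05. Counted units are estimates that rest on vM21 lengths, so no counting interval is given for single values.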
